A study of Homo sapiens with 12 samples.

Results

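The 3 libraries of HEK293T cells that received dCas9-p300 core were compared with the 9 libraries of the same line that received 1 of 3 other proteins, which together are all 12 libraries of the series. Membership was taken from the labelled transfected gene alone, and no measured value chose a library. The other side of the comparison was the mean of its 3 groups on the log scale, each group weighing equally. HEK293T cells derive from human embryonic kidney and express the large T antigen of SV40. Plasmids were delivered by lipid transfection, and every group, dCas9 alone included, also received guide RNAs for 4 sites at IL1RN, and untransfected cells or other guides were not analysed here. The groups were dCas9-p300 core, dCas9-VP64, dCas9-p300 D1399Y and dCas9, with 3 libraries each. The comparison asks which RNAs were higher or lower where the fused protein had acetyltransferase activity, and whether those RNAs stood at a common level in the 3 groups without it.

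Nuclease-dead Cas9 (dCas9) is carried to a DNA site by its guide RNA and binds it without cutting. p300, the product of EP300, is a histone acetyltransferase and transcriptional coactivator that adds acetyl groups to histones at promoters and enhancers, among them the mark H3K27ac found at active ones. The fused core keeps its catalytic domain, and the D1399Y change removes catalytic activity. VP64 is a viral activation domain without acetyltransferase activity that recruits the cell's own coactivators. IL1RN, the guided gene, codes for the receptor antagonist of interleukin 1, which is secreted and occupies the interleukin 1 receptor without setting off its signal.

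Of 14613 genes tested, 7 were higher with the core and 0 were lower, a share of 0.0479% and 0% (edgeR's quasi-likelihood test, Benjamini-Hochberg adjusted p under 0.05). The 7 were IL1RN, KDR, CRISPLD2, PDE2A, NFASC, CYRIA and VSIR. In each of them all 3 core libraries lay above all 9 others, a pattern found higher in 133 tested genes (0.91%) and lower in 36 (0.246%). KDR and VSIR passed the filter on low counts only through their core libraries, so for them this pattern is a description only. At an unadjusted p under 0.05 the counts were 312 higher (2.14%) and 59 lower (0.404%). The median log2 difference of all tested genes was 0.00336, and 51% of them lay above 0.

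The 250 bases before the annotated start of 4 of the 7 genes are shown because they run from few to many CG pairs, with PDE2A close to the guided gene and KDR and NFASC above it. They are RefSeq sequences of GRCh38.p14, 5′ to 3′ on the strand of the gene, with every CG pair, the site of DNA methylation in human cells, in capitals. The windows are chr2:113117721-113117970 (plus strand) for the first of 3 IL1RN windows, chr4:55125596-55125845 (minus strand) for KDR, chr11:72674423-72674672 (minus strand) for PDE2A and chr1:204828402-204828651 (plus strand) for the first of the NFASC windows.
IL1RN: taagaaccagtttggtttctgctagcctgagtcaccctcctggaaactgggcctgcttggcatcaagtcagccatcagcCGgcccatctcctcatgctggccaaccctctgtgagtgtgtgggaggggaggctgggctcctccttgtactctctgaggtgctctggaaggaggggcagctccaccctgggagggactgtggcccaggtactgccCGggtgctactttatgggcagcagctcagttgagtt
KDR: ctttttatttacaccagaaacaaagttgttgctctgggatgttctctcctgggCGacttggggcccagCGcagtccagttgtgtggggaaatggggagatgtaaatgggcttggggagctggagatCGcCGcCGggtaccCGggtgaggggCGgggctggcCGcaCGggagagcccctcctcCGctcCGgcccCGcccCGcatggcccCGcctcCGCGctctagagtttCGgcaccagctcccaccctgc
PDE2A: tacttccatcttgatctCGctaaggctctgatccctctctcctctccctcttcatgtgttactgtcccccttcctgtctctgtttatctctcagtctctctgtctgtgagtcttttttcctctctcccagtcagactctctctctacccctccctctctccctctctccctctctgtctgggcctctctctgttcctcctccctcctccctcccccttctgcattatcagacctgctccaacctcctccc
NFASC: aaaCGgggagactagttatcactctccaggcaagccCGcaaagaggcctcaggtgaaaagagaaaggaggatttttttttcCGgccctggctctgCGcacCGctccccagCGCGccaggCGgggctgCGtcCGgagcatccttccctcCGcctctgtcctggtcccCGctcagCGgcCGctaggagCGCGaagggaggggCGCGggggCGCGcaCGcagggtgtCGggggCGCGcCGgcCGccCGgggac
The IL1RN window held 2 CG pairs and that of PDE2A 1, against 17 for KDR and 27 for NFASC. Windows of tested genes held a median of 20 (quartiles 11 and 28, 16547 windows), and 4.1% of them had fewer CG pairs than the IL1RN window and 1.5% fewer than that of PDE2A. Of the 7 genes 6 had at least 1 window in the RefSeq table, 9 windows in all. The others held 2 and 6 CG pairs (IL1RN), 27 (CRISPLD2), 9 (NFASC) and 25 (VSIR).

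Short motifs were searched on both strands of these windows. TATAAA was in the third IL1RN window, TGACTCA, the site of AP-1, in the first, and GGGCGG, the GC box, in those of KDR, CRISPLD2 and VSIR and in the first of NFASC. Of all windows of tested genes 6.1% held TATAAA, 2.9% TGACTCA and 62.3% GGGCGG. TGACGTCA, the site bound by CREB (2.4% of windows), and CACGTG, the E-box (8.2%), were in none of the 9 windows. A match describes the letters of the window and is no evidence of binding.

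Total counts ran between 3778675 and 5154627 in the core libraries and between 2442960 and 4228316 in the others. dCas9 replicate 3 had the lowest total of the 12 and held 6 of the 8 values that stood apart from their group of 9 among 52 genes examined for it. Core replicate 3 and D1399Y replicate 3 carried the pool label CV42 and the other 10 libraries CV41, so the pool is shared unevenly between the sides. The 8 listed markers of HEK293 cells were uneven: VIM, an intermediate filament gene, had 631 to 867 counts per library and NEFL, a neurofilament gene, 218 to 618, while the lowest pair had 6 to 30 and 0 to 3. The labels number the replicates without saying that they came from separate cultures, and p-values measure the spread between these libraries alone. In bulk RNA a change in the share of cells that express a gene and a change per cell cannot be told apart.

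IL1RN rose the most of the 7. Its level was 73.6, 87.9 and 89.2 CPM (counts scaled to a common library size) in the core libraries, against 23.6, 19.3 and 31.3 CPM with dCas9-VP64, 6.51, 7.52 and 9.32 CPM with D1399Y and 4.25, 6.70 and 9.26 CPM with dCas9. The lowest core library was more than 2 times the highest of the 9 others, and the dCas9-VP64 libraries formed a step between the core and the remaining 6. IL1RN was 7.69-fold higher with the core than the mean of the other groups (95% interval 5.85 to 10.1; log2 2.94 ± 0.18 SE; adjusted p = 1.35e-06, edgeR). IL1RN differed among the other 3 (adjusted p = 0.0276, edgeR F-test), though this call was lost in 14 of 22 alternatives, with adjusted p from 2.87e-10 in DESeq2 to 0.338 in the CV41 libraries. It was lost without any 1 of the core, dCas9-VP64 and D1399Y libraries or dCas9 replicate 2, and in limma-voom (adjusted p = 0.149). Against single groups IL1RN was 3.38-fold higher than with dCas9-VP64 (2.45 to 4.66), 10.7-fold higher than with D1399Y (7.37 to 15.5) and 12.6-fold higher than with dCas9 (8.55 to 18.6).

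KDR rose the most of the 6 called genes without a guide. It encodes VEGFR2, the main signalling receptor for vascular endothelial growth factor on endothelial cells. Its levels were 7.15, 8.89 and 8.95 CPM in the core libraries, against 0.496, 1.78 and 1.53 CPM with dCas9-VP64, 2.17, 0.578 and 1.6 CPM with D1399Y and 0.850, 1.67 and 0.741 CPM with dCas9. The 9 others lay together at the bottom of the scale. Their counts were 2 to 8 per library, against 27, 46 and 34 with the core. The filter on low counts asks for about 10 counts in 3 libraries, so KDR entered the test through its core libraries alone. Its separation from the others is therefore a description only. KDR was 6.37-fold higher in core libraries (95% interval 3.98 to 10.2; log2 2.67 ± 0.32 SE; adjusted p = 0.00264, edgeR).

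KDR is itself on the list of 11 endothelial markers. The summed level of the 10 other endothelial markers was 75.2 to 79.4 CPM in the core libraries, against 41.5 to 85.4 CPM in the others, so the ranges overlapped. CDH5, TIE1, VWF, ERG and CLDN5, which define endothelial cells, had 0 or 1 count in every library. FLT1, the receptor VEGFR1, made up most of the sum, with 65.0 to 72.1 CPM in the core libraries, against 32.2 to 80.6 CPM in the others. PECAM1 had 0.966 to 2.37 CPM in the core libraries, against 0.239 to 2.22 CPM in the others, TEK 0.773 to 1.05 CPM, against 0.478 to 2.22 CPM, and EMCN 2.51 to 4.74 CPM, against 2.29 to 4.53 CPM. Those 3 overlapped between the sides, and ESAM, a junctional adhesion protein, did not. ESAM had 2.38, 2.51 and 2.89 CPM in the core libraries, against 0.371 to 1.67 CPM in the others, and its 33 and 30 counts kept it out of the genes tested. Without the filter on low counts ESAM stood at log2 1.49 and did not pass (unadjusted p = 0.00054, adjusted p = 0.418, edgeR). The part of other cells in the KDR value was not tested beyond these levels.

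NFASC encodes neurofascin, an adhesion protein of the axon initial segment and of the nodes of Ranvier. It stood at 15.1, 13.7 and 17.1 CPM in the core libraries, against 7.69, 4.33 and 5.60 CPM with dCas9-VP64, 8.69, 6.36 and 5.86 CPM with D1399Y and 7.37, 6.22 and 4.45 CPM with dCas9. The core libraries lay clear of the others, which mixed without regard to group. NFASC was 2.42-fold higher in core libraries (95% interval 1.78 to 3.27; log2 1.27 ± 0.20 SE; adjusted p = 0.0450, edgeR). It was the smallest of the 7 differences.

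PDE2A encodes a phosphodiesterase that breaks down cAMP and cGMP and is itself stimulated by cGMP. Its levels were 7.15, 12.6 and 9.47 CPM in the core libraries, against 2.23, 1.78 and 4.07 CPM with dCas9-VP64, 3.26, 1.16 and 2.66 CPM with D1399Y and 1.98, 3.59 and 3.33 CPM with dCas9. Core replicate 2 was the highest of the 12. PDE2A was 3.65-fold higher in core libraries (95% interval 2.37 to 5.61; log2 1.87 ± 0.29 SE; adjusted p = 0.0399, edgeR).

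CRISPLD2 encodes a secreted cysteine-rich protein. It stood at 10.3, 9.66 and 10.5 CPM in the core libraries, which lay within 1 CPM of each other, against 2.73, 2.54 and 2.04 CPM with dCas9-VP64, 2.71, 2.31 and 3.73 CPM with D1399Y and 3.97, 5.02 and 1.11 CPM with dCas9. The spread of the others was widest within dCas9, whose replicate 3 had 3 counts. CRISPLD2 was 3.43-fold higher in core libraries (95% interval 2.31 to 5.08; log2 1.78 ± 0.26 SE; adjusted p = 0.0362, edgeR).

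CYRIA encodes a protein that binds the GTPase Rac1 and restrains the actin-nucleating WAVE complex. Its levels were 9.80, 9.47 and 8.95 CPM in the core libraries, against 3.47, 3.05 and 2.55 CPM with dCas9-VP64, 2.71, 5.78 and 2.40 CPM with D1399Y and 0.850, 3.11 and 2.22 CPM with dCas9. D1399Y replicate 2 came closest to the core. CYRIA was 3.29-fold higher in core libraries (95% interval 2.17 to 4.99; log2 1.72 ± 0.28 SE; adjusted p = 0.0450, edgeR).

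VSIR encodes VISTA, an inhibitory receptor of T cells and myeloid cells. It stood at 4.50, 6.76 and 5.26 CPM in the core libraries, against 1.24, 0.763 and 1.27 CPM with dCas9-VP64, 0.814, 1.16 and 1.33 CPM with D1399Y and 0.567, 1.43 and 3.70 CPM with dCas9. dCas9 replicate 3, with 10 counts, was the highest of the others and stood apart from them. No other library outside the core reached the filter on low counts, so VSIR entered the test through its core libraries. VSIR was 4.25-fold higher in core libraries (95% interval 2.54 to 7.12; log2 2.09 ± 0.35 SE; adjusted p = 0.0450, edgeR). The summed level of 9 blood cell markers was 15.6 to 21.7 CPM in the core libraries, against 12.1 to 22.2 CPM in the others, and CD3E, which defines T cells, was at 0 in all 12. CD68, a marker of macrophages, had 6.62, 3.48 and 4.47 CPM in the core libraries, against 1.53 to 5.10 CPM in the others, which overlap them, and stood higher at an unadjusted p of 0.0386 (log2 0.57 ± 0.25, adjusted p = 1.00, edgeR). The myeloid markers CD14 and ITGAM had 11 and 2 counts in the core libraries together, against 36 and 11 in the 9 others. The part of such cells in the VSIR value was not tested. VSIR overlaps CDH23 in the annotation by the span of the genes, and whether their exons overlap was not examined. No source used here states the strand setting of the counting, so reads from any stretch that both genes share cannot be told apart. CDH23 had 673 counts with the core and 1391 in the others together (log2 0.32, adjusted p = 1.00, edgeR).

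**Figure D1:**
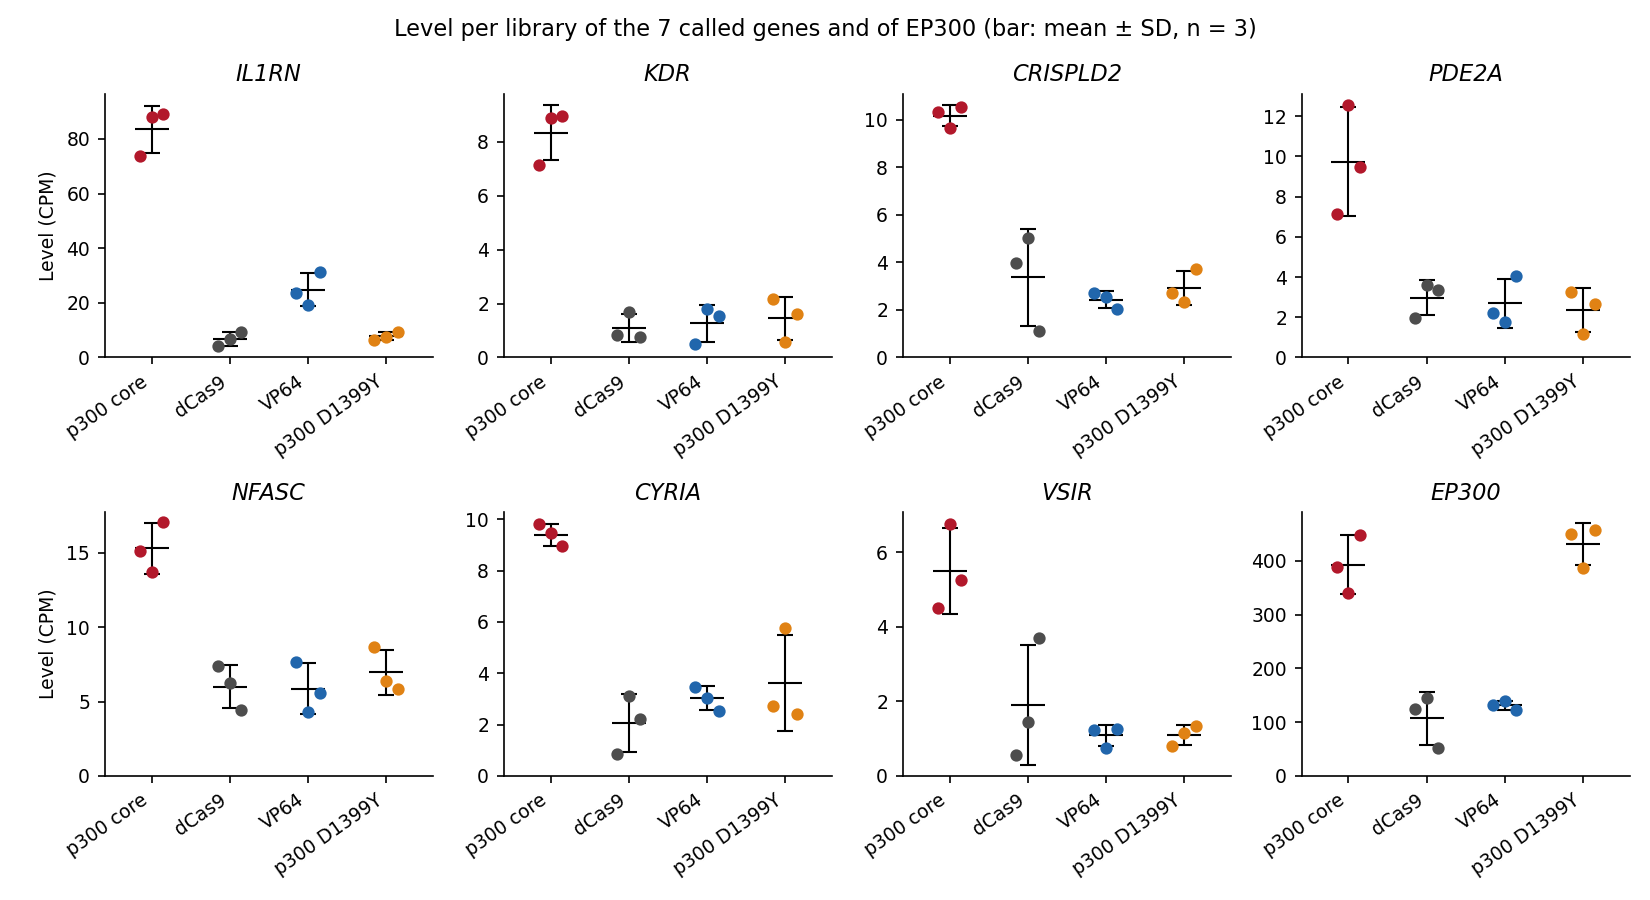
Level in CPM (vertical axis, from 0) of the 7 genes past the threshold and of EP300 in each of the 12 libraries, with p300 core at the left of each panel; points are libraries and bars the mean ± SD (n = 3). In the 7 genes the 3 core points lie above the other 9, with IL1RN at 73.6 to 89.2 CPM against at most 31.3, while EP300 lies at 339 to 449 CPM with the core and at 386 to 456 CPM with D1399Y.

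These calls rest on few libraries and are unequal in strength. IL1RN passed in all 26 alternatives that were tried and KDR in 24, against 13 for CRISPLD2, PDE2A and CYRIA, 11 for NFASC and 10 for VSIR. Leaving out any 1 of the 9 libraries of the core, dCas9-VP64 and D1399Y groups left 1 to 3 calls. Leaving out 1 of dCas9 gave 7 to 10 calls, not all of them among the 7. Without dCas9 replicate 2 there were 8 calls, 5 of them among the 7. NFASC (adjusted p = 0.0647, edgeR) and VSIR (adjusted p = 0.0824, edgeR) missed the threshold there. Without core replicate 2, the deepest library, 1 gene passed (IL1RN) and KDR stood at log2 2.62 with an adjusted p of 0.0536. Within the CV41 libraries alone, 2 against 8, IL1RN again was the 1 gene past the threshold (log2 2.94, adjusted p = 0.000184), and KDR stood at 2.65 (adjusted p = 0.118), PDE2A at 1.92 (0.501) and NFASC at 1.15 (0.858). CV42 held no dCas9 or dCas9-VP64 library and gave no value of its own. With the pool label as a term in the fit IL1RN and KDR passed. The log2 difference itself moved less, with a lowest value over all 26 of 2.59 for IL1RN, 2.54 for KDR, 1.90 for VSIR, 1.64 for CRISPLD2, 1.63 for PDE2A, 1.5 for CYRIA and 1.15 for NFASC.

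Of the 7 genes 1, NFASC, met the criterion used here for a common level in the 3 other groups. The criterion was that all 3 pairwise 95% intervals among dCas9-VP64, D1399Y and dCas9 lay within 2-fold, which 10882 tested genes met (74.5%). For NFASC the intervals reached no further than -0.85 and 0.81 on the log2 scale, beside a core difference of 1.27. The margin of 2-fold is thus close to the size of that difference. IL1RN failed the criterion through dCas9-VP64, which stood above dCas9 by log2 1.90 ± 0.27 (1.32 to 2.48). KDR, CRISPLD2, PDE2A, CYRIA and VSIR did not meet it either, although no difference among the other groups passed for them. For KDR the intervals ran to -1.38 and 1.59, at 2 to 8 counts per library, so the depth does not resolve a 2-fold difference among the 3 groups. A test that misses its threshold does not show that these genes were level.

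Over all genes 2 differed among the 3 other groups, IL1RN and EP300 (0.0137% of those tested; adjusted p = 0.0276 for both, edgeR F-test), and 311 did so at an unadjusted p under 0.05 (2.13%). The EP300 call was lost in 13 of 22 alternatives, among them those without any 1 of the core, dCas9-VP64 and D1399Y libraries, with adjusted p of up to 0.465 in the CV41 libraries. EP300 is the gene from which the fused core was taken. It stood at 389, 339 and 449 CPM in the core libraries, against 450, 386 and 456 CPM with D1399Y, 133, 139 and 122 CPM with dCas9-VP64 and 124, 146 and 51.9 CPM with dCas9. The 6 libraries of the p300 fusions were all above the 6 without one, and the core lay no higher than D1399Y (log2 -0.14 ± 0.26). Both p300 plasmids carry part of the EP300 coding sequence, and how much of the count came from plasmid RNA was not tested. Against the mean of the other groups EP300 did not pass (log2 1.10 ± 0.21, adjusted p = 0.117, edgeR). It did without dCas9 replicate 3 (0.99, adjusted p = 6.2e-05, edgeR) and without dCas9 replicate 2 (1.195, adjusted p = 0.0374, edgeR).

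Against each group in turn, 1 gene passed in each of the 3 comparisons, IL1RN each time (0.00684% of tested genes higher and 0% lower in each, edgeR). These comparisons share the core libraries and are set side by side only. KDR was 6.47-fold higher than with dCas9-VP64 (adjusted p = 0.0797), 5.60-fold higher than with D1399Y (0.171) and 7.13-fold higher than with dCas9 (0.0520). NFASC stood at log2 1.37, 1.13 and 1.32 in the same order of groups, PDE2A at 1.86, 2.03 and 1.71, and CRISPLD2 at 2.04, 1.78 and 1.51. CYRIA stood at 1.63 against dCas9-VP64, 1.38 against D1399Y and 2.15 against dCas9, and VSIR at 2.32, 2.31 and 1.64 in that order. IL1RN apart, none of the 7 passed against a single group. The smallest difference among them was 2.18-fold, NFASC against D1399Y.

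**Figure D2:**
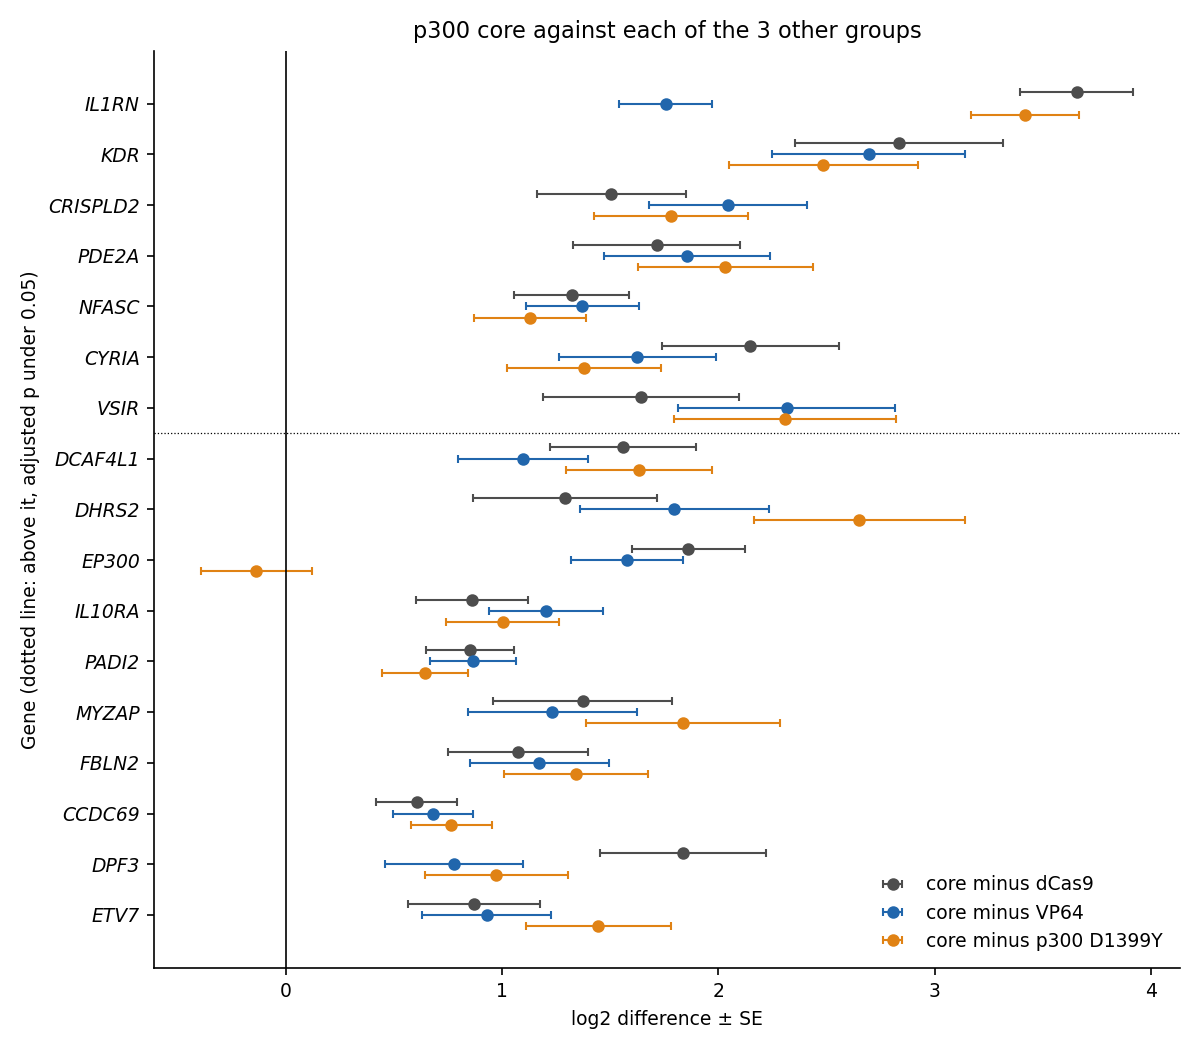
Log2 difference ± SE (horizontal axis) of p300 core minus dCas9, dCas9-VP64 and D1399Y for the 7 genes past the threshold (above the dotted line) and the 10 next genes by p. For IL1RN the dCas9-VP64 point lies at 1.76, apart from those of D1399Y at 3.42 and dCas9 at 3.66; for EP300 the D1399Y point lies at -0.14, and for KDR the 3 points lie between 2.49 and 2.83.

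The genes next in order of p were DCAF4L1, DHRS2, EP300, IL10RA, PADI2, MYZAP, FBLN2, CCDC69, DPF3 and ETV7, and none passed in edgeR with all libraries. Like KDR and VSIR, DCAF4L1, MYZAP and ETV7 passed the filter on low counts only through their core libraries. DESeq2 called DHRS2, EP300, PADI2 and FBLN2 among them. DCAF4L1 had 5.03, 4.25 and 5.53 CPM in the core libraries, against 1.16 to 2.80 CPM (median 1.85) in the 9 others, with no overlap (log2 1.43 ± 0.24, adjusted p = 0.0590, edgeR), and it passed with the 9 others fitted as 1 group (adjusted p = 0.0442). DHRS2, a short-chain dehydrogenase known to rise when histone deacetylases are inhibited, had 49.0, 20.1 and 25.3 CPM in the core libraries, against 12.7, 5.60 and 8.65 CPM with dCas9-VP64, 5.43, 4.34 and 5.06 CPM with D1399Y and 9.07, 6.94 and 23.7 CPM with dCas9. Here dCas9 replicate 3 lay among the core libraries, and without it DHRS2 passed (log2 2.13, adjusted p = 0.000863, edgeR). It also passed without a filter (adjusted p = 0.0153, edgeR), and in 4 of 26 alternatives altogether. Without core replicate 1, its highest library, DHRS2 stood at log2 1.44 and did not pass (adjusted p = 0.944, edgeR). With all libraries it stood at log2 1.91 ± 0.35 (adjusted p = 0.0803, edgeR).

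IL10RA, the ligand-binding chain of the interleukin 10 receptor, had 7.68, 10.8 and 12.4 CPM in the core libraries, against 3.82 to 7.08 CPM (median 5.02) in the others (log2 1.02 ± 0.20, adjusted p = 0.214, edgeR). PADI2, an enzyme that converts arginine in proteins to citrulline, had 31.0, 33.8 and 37.9 CPM in the core libraries, against 13.5 to 24.4 CPM (median 19.4) in the others (log2 0.79 ± 0.16, adjusted p = 0.226, edgeR). CCDC69 had 23.3, 20.5 and 18.9 CPM in the core libraries, against 10.7 to 14.8 CPM (median 13.3) in the others (log2 0.68 ± 0.15, adjusted p = 0.338, edgeR). All 3 were without overlap between the sides, and all 3 met the criterion of a common level within 2-fold in the other groups. Over all tested genes 0.91% lay higher without overlap and 74.5% met the criterion. The 3 genes were chosen by a p from the same libraries, so their lack of overlap is a description only. Among MYZAP, of the junctions between heart muscle cells, FBLN2, the matrix protein fibulin 2, DPF3, which belongs to the chromatin remodeller BAF, and ETV7, an ETS family repressor, log2 differences were 1.48, 1.20, 1.20 and 1.08.

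At an unadjusted p under 0.001 there were 24 genes, all higher with the core (0.164% of those tested), and 0 lower. Their log2 differences lay between 0.68 and 2.94 with a median of 1.35. Of the 24, 23 were higher with the core against each of the 3 groups, 22 had all core libraries above all others, and 5 met the criterion of a common level. Over all tested genes 0.91% had all core libraries above all others and 74.5% met the criterion. The 24 were chosen by a p from the same libraries, so these counts are a description only.

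No gene was lower with the core past the threshold in edgeR, in DESeq2 or in limma-voom. The 5 lower genes of smallest p were CES5A, TNFRSF10B-AS1, ANKRD20A12P, DNAH17 and MYPN, with adjusted p of 0.928 to 1.00 (edgeR). CES5A, a carboxylesterase gene, had 1.32, 1.16 and 1.32 CPM in the core libraries, against 1.98 to 5.19 CPM (median 3.47) in the others, without overlap (log2 -1.33 ± 0.39). ANKRD20A12P, a pseudogene of a multicopy family whose reads may be split among its copies, had 3.97, 5.22 and 6.84 CPM in the core libraries, against 7.2 to 13.2 CPM (median 9.58) in the others (log2 -0.87 ± 0.24). TNFRSF10B-AS1, an antisense RNA, stood at log2 -0.99, and any reads it shares with its partner cannot be told apart without strand. Log2 differences were -0.88 for DNAH17, an axonemal dynein chain, and -1.32 for MYPN, the sarcomere protein myopalladin.

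**Figure D3:**
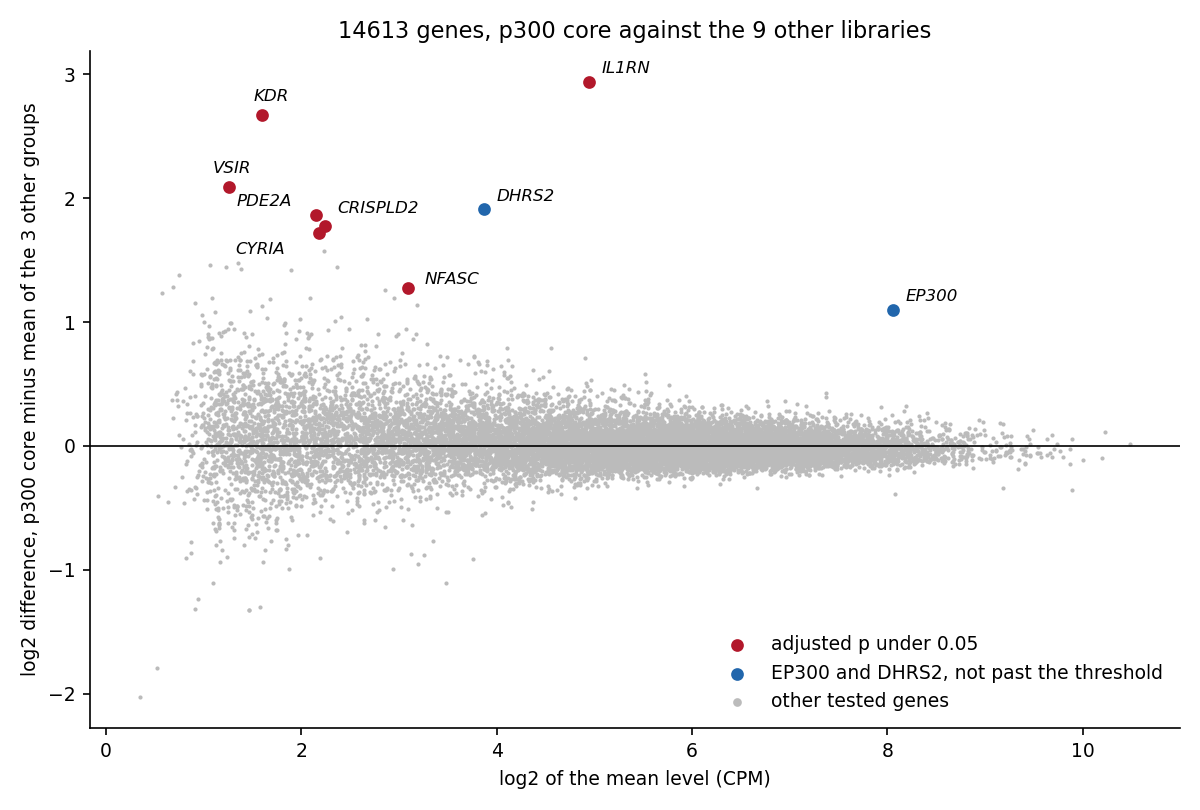
Log2 difference of p300 core minus the mean of the 3 other groups (vertical axis) against the log2 of the mean level in CPM (horizontal axis) for 14613 tested genes; genes past the threshold are in red, EP300 and DHRS2 in blue. The 7 red points all lie above 0, from NFASC at 1.27 to IL1RN at 2.94, and no red point lies below it.

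Relatives of the 7 genes were read from lists of their pathways. Each pathway list holds the called gene it was read for, so its 1 call was given in advance. Over all tested genes 0.0479% were called higher and 0% lower. At that share, no call among the other members or the neighbours of IL1RN says little about them. In the interleukin 1 system 1 of 13 tested members rose, IL1RN itself, and 0 fell; the list's median was 0.15 beside 0.00336 for all genes. The receptor IL1R1 stood at log2 0.66 ± 0.34 and the kinase IRAK4, which carries the signal inward from the receptor, at 0.22 ± 0.12, and neither passed (adjusted p = 1.00 each, edgeR). The agonists that the IL1RN product opposes were close to absent: IL1A had 0 counts in the core libraries and 2 in the others together, and IL1B 2 counts in the core libraries and 0 in the others. The 8 tested neighbours of IL1RN on chromosome 2 lay between -0.06 and 0.37, with PSD4, an exchange factor for the GTPase ARF6, at 0.37 ± 0.36 and RABL2A, a GTPase, at 0.30 ± 0.27, and 0 passed.

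Of the VEGF ligands and receptors 1 of 9 tested members rose, KDR, at a list median of 0.02. FLT4, the lymphatic receptor VEGFR3, stood at 0.19 ± 0.13 and the coreceptor NRP2 at 0.27 ± 0.19. Of the cyclic nucleotide phosphodiesterases 1 of 20 rose, PDE2A, at a median of 0.09, with the cGMP-specific PDE9A at 0.27 ± 0.14 and the cAMP-specific PDE7B at 0.41 ± 0.22. Of the proteins of axonal adhesion and the node 1 of 14 rose, NFASC, at a median of 0.18 with 13 members above 0. CNTNAP2 and CNTNAP1, which anchor contactins beside the node, stood at 0.40 ± 0.23 and 0.29 ± 0.21. The list's median was 0.20 against dCas9-VP64, 0.07 against D1399Y and 0.37 against dCas9, and 0.09 without dCas9 replicate 3, and CNTNAP2 stood at 0.24, 0.14 and 0.80 against the 3 groups in that order. Of the WAVE complex and Rac genes 1 of 12 rose, CYRIA, at a median of 0.03, with RAC1 at -0.12 ± 0.10 and the WAVE subunit CYFIP2 at 0.12 ± 0.12. Without dCas9 replicate 3 the medians were 0.10 for the interleukin 1 system, 0.06 for the phosphodiesterases, -0.03 for the VEGF list and -0.01 for the WAVE list, the last pair of opposite sign. None of the named relatives passed (adjusted p = 1.00 each, edgeR), which beside 0.0479% of all tested genes called higher says little about them.

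Genes of acetylation itself showed no call, beside 0.0479% of all tested genes called higher and 0% lower. At that share, 0 calls in lists this short say little about their members. Of 15 histone acetyltransferases 0 passed, at a median of 0.04, with HAT1, which acetylates newly made histone H4, at -0.13 ± 0.11 and TAF1, a TFIID subunit, at 0.18 ± 0.17. Among 16 histone deacetylases 0 passed, at a median of 0.00193, with SIRT2 at 0.26 ± 0.13 and HDAC10 at -0.49 ± 0.26. Bromodomain proteins, which read acetylated lysine, had 0 of 19 past the threshold and lay between -0.10 and 0.11. The BAF complex had 0 of 22, at a median of 0.08, with SMARCC2 at 0.21 ± 0.12 and DPF3 the highest. Of 6 genes known to rise with deacetylase inhibitors 0 passed, at a median of 0.07, with DHRS2 at 1.91 and GSN, the actin-severing protein gelsolin, at 0.16 ± 0.13.

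Lists of general cell state gave 0 calls as well, which beside 0.0479% of all tested genes says as little about their members. Immediate early genes and CREB targets had 0 of 21, at a median of -0.01 with 10 members above 0. The 3 of smallest p were the transcription factors EGR2 at -0.63 ± 0.38, FOSL1 at -0.68 ± 0.41 and JUNB at -0.31 ± 0.19. The median of these 21 genes was 0.05 against dCas9-VP64, 0.10 against D1399Y and -0.21 against dCas9. Interferon-stimulated genes had 0 of 12, at a median of 0.13. OAS3, which acts in antiviral defence, stood at 0.63 ± 0.26 and the factor IRF7 at 0.65 ± 0.32. Heat shock and stress genes had 0 of 18, at a median of -0.08, with the chaperones HSPE1 at -0.23 ± 0.18 and HSP90AA1 at -0.14 ± 0.11. Cytosolic ribosomal protein genes had 0 of 24 past the threshold and 0 above 0, at a median of -0.14, with RPS12 at -0.22 ± 0.14 and RPL27 at -0.18 ± 0.12. That median was -0.05 against dCas9-VP64, -0.07 against D1399Y and -0.28 against dCas9, and -0.09 without dCas9 replicate 3. In these lists of acetylation and of cell state, members with an unadjusted p under 0.05 were 1 acetyltransferase (EP300), 1 BAF subunit (DPF3), 1 gene known from deacetylase inhibitors (DHRS2) and 1 interferon-stimulated gene (OAS3), all higher with the core, and 0 in the others. Over all 14613 tested genes 2.14% were higher and 0.404% lower at that p (edgeR).

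**Figure D4:**
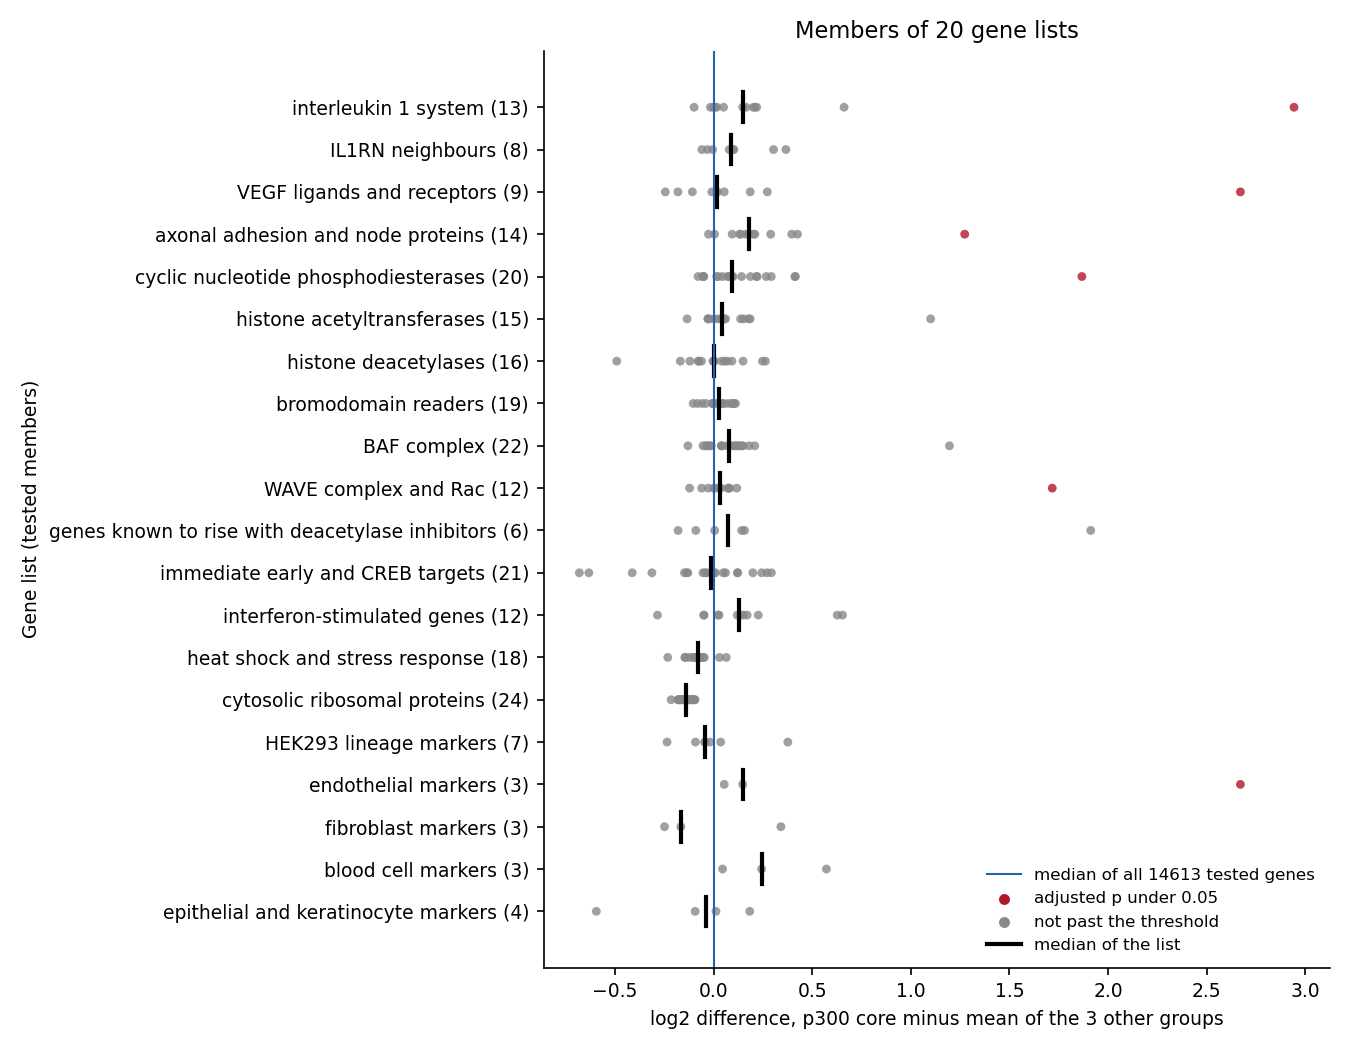
Log2 difference of p300 core minus the mean of the 3 other groups (horizontal axis) for the tested members of 20 gene lists, with the number tested in brackets; black bars are list medians and the blue line the median of all tested genes. Red points, past the threshold, are single members far to the right of their lists, such as KDR at 2.67 in a list with a median of 0.02.

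The genes next to the 7 on the chromosome gave no call, beside 0.0479% of all tested genes called higher and 0% lower. Over all tested genes 0.91% lay higher and 0.246% lower without overlap between the sides. Of 14 nearest tested neighbours, 1 on each side of each gene, 0 passed and 0 were without overlap between the sides. Their log2 differences lay between -0.09 and 0.58 with a median of 0.09. The highest, and the 1 with an unadjusted p under 0.05, was SLC29A3, a nucleoside transporter beside VSIR (0.58 ± 0.25, unadjusted p = 0.0344). KIT, the receptor gene next to KDR, stood at 0.11 ± 0.24.

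Transcripts of 1 gene are listed apart in the files, and no source used here states how reads shared between them were counted. The 4 IL1RN transcripts had 252 to 296 counts in the core libraries together, against 109 to 117 in the 9 others together. The 4 PDE2A transcripts had 29 to 37 counts in the core libraries, against 21 to 23 in the others. In 1 of them, NM_001243784, the lowest core library had 5 counts and the highest of the others 6. Among the 6 NFASC transcripts counts in the 3 core libraries together, against the 9 others, were 46 and 59 for NM_001005388, 41 and 33 for NM_001160331, 47 and 44 for NM_001160332 and 44 and 46 for NM_015090. The other two were low, with 7 counts against 18 for NM_001005389 and 8 against 10 for NM_001160333, and in both the lowest core library lay below the highest of the others. KDR, CRISPLD2, CYRIA and VSIR had 1 transcript each. Markers of fibroblasts summed to 32.0 to 33.2 CPM in the core libraries, against 26.1 to 37.5 CPM in the others, with FAP and THY1 at 0, and epithelial markers to 139 to 182 CPM, against 127 to 217 CPM, with KRT5 and KRT14 at 0.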

How the data were processed

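Polyadenylated RNA of 12 HEK293T libraries was sequenced, 4 groups of 3. The authors deposited raw counts, 1 table per library, for 40709 RefSeq transcripts. Per the submitters' processing notes hg19 was the build, and R 3.1.2, DESeq2 1.6.2, Bowtie2, CASAVA and SAMtools were used. No source used here gives the role of each, the strand setting, or the handling of duplicates and of reads shared by isoforms, and each could change a gene's sum. Transcripts were named through a RefSeq table (39320) and GENCODE (521), and 868 holding 1.07% of the reads kept their identifiers. Counts were summed per gene, giving 24395 features. No 2 libraries were identical.

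Tests used edgeR 4.0.16 under R 4.3.3 (TMM normalization, filterByExpr with min.count 10 and min.total.count 15), by the quasi-likelihood test on 4 group means over all 12 libraries. The contrast was the core minus the mean of the other 3 groups on the log scale. P-values were two-sided, and the Benjamini-Hochberg adjustment ran over the 14613 tested genes (threshold 0.05). A further F-test compared the 3 other groups. Levels are CPM on TMM-scaled library sizes. Standard errors come from the fit's information matrix and the quasi-dispersion. The test was also run on simulated counts with known changes, drawn independently for each library. They held no pool effect and no correlation between same-numbered libraries, so they do not check the test for those.

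Alternatives were RLE and upper-quartile factors, no filter, a filter of 1 CPM in 3 libraries, DESeq2 1.42.0, limma-voom (limma 3.58.1), robust estimation, a replicate block, the pool label as a covariate, the CV41 libraries alone, the 9 other libraries as 1 group, and leaving out groups or libraries. Named genes were the 4 given markers, EP300, all genes past the threshold, the 10 higher and 5 lower next by p, and at most 3 members of each list, of which some are left unnamed. Cell type markers and the chromosomal neighbours are named outside that rule, ESAM and CD68 after their values were seen. FRG2 and SPOCK1 are named because alternatives called them. The markers, lists and comparison were chosen with earlier results of these data known. BRD1, on 1 list, was not analysed here, and 1 marker of the line is not reported here. Promoter windows and gene order came from GRCh38.p14 RefSeq tables, not the build of the counts. Tables and plots were made in Python 3.11.15 (matplotlib 3.10.9, pandas 2.3.3).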

Additional observations from a re-analysis of the deposited data

Results flagged for a closer look

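Among the 52 genes considered for naming, 8 had 1 library far from the other 8 of the 9 libraries without an active p300 core, by Dixon's test, and chance gives such a value in about 1 of 20 groups. For VSIR, dCas9 replicate 3 had 3.70 CPM, and the next highest library 1.43 CPM. For DHRS2, dCas9 replicate 3 had 23.7 CPM and the next 12.7 CPM. In PDE9A, dCas9 replicate 3 stood at 93.0 CPM, with the next at 60.3 CPM, and in JUNB at 36.3 CPM, with the next at 24.1 CPM. In RPS12 the same library had 134 CPM, against a next value of 98.9 CPM, and in RAC1 400 CPM, against 327 CPM. dCas9-VP64 replicate 3 stood apart for MYPN with 5.85 CPM, the next being 3.70 CPM. dCas9-VP64 replicate 1 stood apart for CYFIP2 with 192 CPM, the next being 159 CPM. The 3 core libraries are too few for this test.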

How the results depend on the processing

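The 7 calls fell to 2 with the pool label as a covariate, 1 in the CV41 libraries alone (14755 genes tested), 2 without the dCas9-VP64 group, 3 without the dCas9 group and 3 without the D1399Y group, and rose to 11 in DESeq2. Leaving out 1 library gave 1 to 10. It gave 1 to 3 for each of the 9 libraries of the core, dCas9-VP64 and D1399Y groups. No alternative called a gene lower, and none turned a called direction among the 52 genes recomputed. Genes that differed among the other groups numbered 1 with upper-quartile factors, 0 in limma-voom, 1 with the replicate block, 0 with the pool label, 0 in CV41 and 0 to 2 leaving out 1 library; the gene left was EP300 with upper-quartile factors and IL1RN with the block. Genes called against all 3 groups numbered 2 in DESeq2, 0 with the pool label, 0 in CV41 and 0 to 1 leaving out 1 library.

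KDR missed the threshold in CV41 (log2 2.65, adjusted p = 0.118), with a range of 2.54 to 2.84 leaving out 1 library. NFASC missed it with the pool label (1.27, 0.134), in CV41 (1.15, 0.858), without dCas9-VP64 (1.22, 0.126), without dCas9 (1.25, 0.0973) and without D1399Y (1.35, 0.0575), and ran from 1.19 to 1.35 leaving out 1 library. PDE2A missed it with the pool label (1.86, 0.104), in CV41 (1.92, 0.501), without dCas9-VP64 (1.87, 0.106), without dCas9 (1.94, 0.0700) and without D1399Y (1.79, 0.0884), and ran from 1.63 to 2.04. EP300 passed with upper-quartile factors (1.12, 0.0347), without a filter (1.10, 0.0295), in DESeq2 (1.10, 0.00136) and without D1399Y (1.72, 0.00778), and ran from 0.99 to 1.20. The cause was not tested.

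The replicate block gave 9 calls, all higher, with all 7 among them and DHRS2 (adjusted p = 0.0414) and DCAF4L1 (0.045) added. Deviations of same-numbered libraries of different groups had a median correlation of 0.28 over 18 pairs (-0.37 to 0.66). Over 36 pairs of unlike number the median was -0.18 (-0.64 to 0.45), and 11 of 12 libraries correlated best with their own number. The labels do not say what the numbers share, and the correlation did not hold in every pair. A structure shared by number was not modelled in the main test. Low counts limit KDR and VSIR most, with at most 10 counts in any library outside the core group.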
